A study of Mus musculus with 37 samples.

Results

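The cardiac T-box genes Tbx1, Tbx2, Tbx3, Tbx4, Tbx5 and Tbx20 were followed across 37 libraries of mouse heart RNA at stage E10.5. They were chosen by name, and all 6 are among the 25239 gene symbols of the deposited table of raw read counts. T-box proteins share a DNA-binding domain, the T-box, and either activate or repress the genes they bind. In the embryonic heart Tbx5 and Tbx20 work with Nkx2-5 and Gata4 to turn on chamber myocardium genes, while Tbx2 and Tbx3 hold the same genes down in the atrioventricular canal and the future conduction system. Tbx1 is known from pharyngeal tissue and from the second heart field cells that build the outflow tract, and Tbx4 from hindlimb, lung mesenchyme and other posterior mesoderm.

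The study crossed males carrying Stra8-iCre and 1 Nipbl Flox allele, whose sperm hold either the Flox form, which acts as wild-type, or the null FIN form, with females in which 1 Isl1 allele encodes Cre and is lost for function. Nipbl loads cohesin onto chromosomes, and Isl1 is a transcription factor of second heart field progenitors. The offspring formed 4 groups: wild-type (Nipbl +/+; Isl1 +/+, 10 libraries), Isl1_het (Isl1 +/-, 9 libraries), Nipbl_het (Nipbl +/-, 9 libraries) and double_het (Nipbl +/-; Isl1 +/-, 9 libraries). Isl1_het and double_het hearts therefore also carry Cre in the Isl1 gene, and the labels do not say which embryos inherited Stra8-iCre. The Nipbl allele was lost in the father's germ line, so Nipbl_het hearts lack 1 copy in all cells. An Isl1 Cre embryo that inherits the Flox form carries both, and what Cre does to it in Isl1-expressing cells is not stated. Nipbl RNA in Isl1_het hearts was 52.0 to 72.9 CPM. The labels do not say whether a library is 1 heart or a pool, or which libraries are littermates, so p-values measure the spread between these samples, part of which may be technical.

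Depth ran from 23.4 to 51.0 mega-counts per library, with a median of 36.2. Each library description holds a number after the letters IVF, called the set number here, whose meaning is not spelled out. Sets 2, 5 and 6 hold all 4 genotypes, set 1 holds only wild-type and Isl1_het, and set 7 holds only double_het replicate 2. Cardiomyocyte markers (Tnnt2, Actc1, Myl4, Tnni1 and Nkx2-5) summed to between 15360 and 28200 CPM (counts scaled to a common library size, with TMM factors) in every library, which fits the heart label. Nipbl was below every wild-type library in 8 of 9 Nipbl_het and 8 of 9 double_het libraries. The library labelled Nipbl_het replicate 2 had 72.4 CPM of Nipbl, inside the wild-type range of 47.6 to 78.8, and stood alone on the first principal component (score 114.4, next library 21.03). The main results of the T-box genes are given with and without it. The other library inside that range was double_het replicate 2 of set 7 (51.5 CPM), whose value its own set term absorbs, which leaves 8 libraries behind each double_het comparison. Isl1 RNA in Isl1_het differed from wild-type by -0.20 log2 (edgeR quasi-likelihood test, adjusted p = 0.877), and the sources used here do not give which exons the altered alleles still transcribe.

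Of the 6 T-box genes, Tbx1 was the only one called at an adjusted p of 0.05 in any comparison, and it was higher in Nipbl_het and double_het than in wild-type. Its Nipbl_het call was lost without the library labelled Nipbl_het replicate 2, and all its calls were lost without set 2. It was not called in double_het against Isl1_het, and Isl1_het libraries of set 2 were higher than wild-type too (1.53 log2 on average). The start of Tbx1 is shown because this is the gene the results turn on, beside that of Nppa, the atrial natriuretic peptide gene and a textbook target of Tbx5. Capitals mark the 6 letters AGGTGT (on either strand, ACACCT when read from the other), the core of the sequence that T-box proteins bind. Both are RefSeq promoters of GRCm38.p6, 250 bases before to 50 bases after the start, read 5' to 3' on the gene's strand. The Tbx1 stretch is chr16:18590622-18590921 on the minus strand and the Nppa stretch chr4:148000472-148000771 on the plus strand.
Tbx1: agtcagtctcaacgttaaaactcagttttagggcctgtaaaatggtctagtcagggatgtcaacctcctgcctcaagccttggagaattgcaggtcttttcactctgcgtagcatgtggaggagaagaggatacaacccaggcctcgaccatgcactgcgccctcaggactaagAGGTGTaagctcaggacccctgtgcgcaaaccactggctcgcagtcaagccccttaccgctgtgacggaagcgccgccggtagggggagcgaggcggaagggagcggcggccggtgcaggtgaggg
Nppa: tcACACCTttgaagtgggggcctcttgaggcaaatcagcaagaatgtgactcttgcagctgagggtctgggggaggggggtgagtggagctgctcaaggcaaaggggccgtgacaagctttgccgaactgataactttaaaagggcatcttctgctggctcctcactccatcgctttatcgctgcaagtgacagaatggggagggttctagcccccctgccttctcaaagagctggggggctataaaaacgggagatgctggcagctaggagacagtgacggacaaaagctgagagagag
In Tbx1 the letters begin 76 bases before the start. In Nppa they begin 248 bases before it and lie within the longer form AGGTGTGA, read from the other strand. AGGTGT was present in 13.7% of 32851 promoters of this length and AGGTGTGA, which contains it, in 1.28%. The second Tbx1 start (chr16:18588850-18589149, minus strand) and the listed starts of Tbx4 and Tbx20 held neither, nor did those of Gja5 and Smpx, genes of the chamber list, and of Mycn, a partner factor. A match is a description of the letters, not of binding.

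Levels between genes were compared as CPM per kilobase of annotated exon (GENCODE M21, GRCm38). Over the 37 libraries the median was 17.7 CPM per kb for Tbx5, 17.0 for Tbx20, 11.8 for Tbx2, 3.00 for Tbx3, 0.288 for Tbx1 and 0.0991 for Tbx4. Tbx5 and Tbx20 were not separated: Tbx5 was the higher in 23 of 37 libraries, and with the length of the longest coding transcript the order turned, with Tbx20 (22.5 CPM per kb) above Tbx5 (20.98) in 27 of 37. Tbx20 was above Tbx2 in 33 of 37 libraries, Tbx2 above Tbx3 in all 37, Tbx3 above Tbx1 in 36 and Tbx1 above Tbx4 in 33. The chamber activators Tbx5 and Tbx20 and the repressor Tbx2 thus formed an upper group in these hearts, Tbx3 an intermediate one, and Tbx1 and Tbx4 a low one that rests on few counts. In a whole heart, fewer cells of a type and less RNA per cell cannot be told apart.

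**Figure D1:**
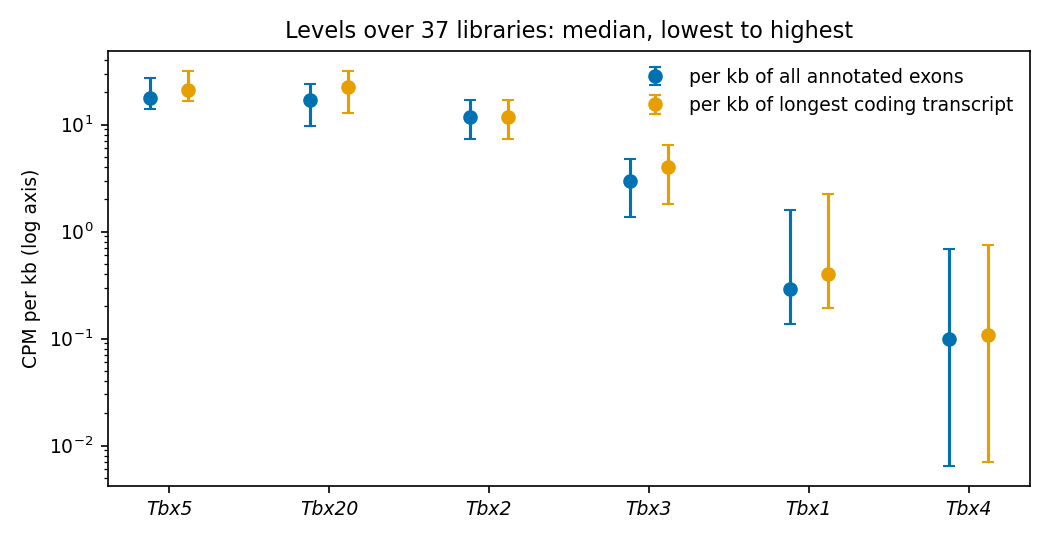
Median (points) and lowest to highest library (bars) of each T-box gene over 37 libraries, in CPM per kilobase on a log axis, by 2 measures of gene length. Tbx5 (17.7 per kb of all exons) and Tbx20 (17.0) overlap and change places between the measures, and Tbx4 (0.0991) is lowest by both.

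Tbx1 (ENSMUSG00000009097.10, chr16:18580979-18590671, minus strand) had higher medians in Nipbl_het and double_het than in wild-type, and to a lesser degree in Isl1_het. Wild-type libraries held 0.483 CPM at the lowest, 0.770 at the median and 1.095 at the highest. Isl1_het libraries held 0.538, 1.014 and 2.29 CPM, in the same order. Nipbl_het libraries held 0.694, 1.90 and 5.38 CPM. In double_het the values were 0.922, 1.38 and 5.595 CPM. The groups therefore overlapped at their low ends and parted at their high ends: 5 of 9 Nipbl_het, 7 of 9 double_het and 4 of 9 Isl1_het libraries lay above every wild-type library. The spread grew with the level, from an SD of 0.193 CPM in wild-type to 1.61 in Nipbl_het and 1.72 in double_het. The highest Nipbl_het value was that of the library labelled replicate 2, and the other 8 reached 3.85 CPM with a median of 1.40 and an SD of 1.08, 4 of them above every wild-type library. Raw counts of Tbx1 were 16 to 224 per library, so each value rests on few reads.

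Compared with wild-type, Tbx1 changed by 1.38 log2 in Nipbl_het (SE 0.354, 95% interval 0.66 to 2.10, edgeR quasi-likelihood test with Benjamini-Hochberg adjusted p = 0.0322), a 2.60-fold higher level. It was the only one of 6 T-box genes called there, in a comparison that called 1.71% of the 15046 genes tested. In double_het the change was 1.37 (SE 0.367, 0.62 to 2.12, edgeR adjusted p = 0.0348), again 1 of 6 members against 2.6% of all genes. These comparisons share the wild-type libraries. Averaged over both Isl1 backgrounds, Nipbl loss changed Tbx1 by 1.07 (SE 0.267, edgeR adjusted p = 0.0143), 1 of 6 members against 4.02%. On the Isl1_het background alone the value was 0.77 (0.04 to 1.498, edgeR adjusted p = 0.587), and 0 of 6 members passed against 0.957%.

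Loss of 1 Isl1 allele gave no call for Tbx1. The difference of Isl1_het from wild-type was 0.60 (-0.10 to 1.30, edgeR adjusted p = 0.839), and that of double_het from Nipbl_het -0.01 (-0.67 to 0.66, edgeR adjusted p = 0.998). In both comparisons 0 of 6 members and 0% of all genes were called, although 886 and 1355 genes had an unadjusted p under 0.05 in edgeR, and other tools or settings over all 37 libraries called at most 11 and 13. The interaction, the excess of the double_het change over both single changes added up, was -0.61 (-1.57 to 0.36) for Tbx1 and -0.21 (-1.02 to 0.60) when Nipbl_het replicate 2 was left out, with 0 of 6 members and 0% of all genes called and 411 at an unadjusted p under 0.05 in edgeR. DESeq2 also called 0. The average Isl1 effect on Tbx1 was 0.30 (-0.20 to 0.79, edgeR adjusted p = 0.626), with 0 of 6 members called against 0.173%.

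Without the library labelled Nipbl_het replicate 2, which held the highest Tbx1 level of its group, the Nipbl_het change was 1.01 (0.40 to 1.62) and no longer called (edgeR adjusted p = 0.0606, with 2.72% of all genes called). The double_het change was then 1.45 (0.83 to 2.07, edgeR adjusted p = 0.00293, with 5.58% called) and the averaged Nipbl effect 0.90 (0.45 to 1.35, edgeR adjusted p = 0.00814, with 6.93% called). The difference of double_het from Nipbl_het became 0.44 (-0.15 to 1.03, with 0% of all genes called), that of double_het from Isl1_het 0.80 (0.20 to 1.39, edgeR adjusted p = 0.189, with 2.4% called) and that of Isl1_het from wild-type 0.65 (0.07 to 1.23, edgeR adjusted p = 0.402, with 0.0133% called). Tbx1 was the only member called in these repeats, and the averaged Isl1 effect on it was 0.54 (0.12 to 0.97, edgeR adjusted p = 0.209, with 0.372% called). Leaving out each of the 37 libraries in turn kept the averaged effect between 0.90 and 1.20 and always called (adjusted p 0.00594 to 0.0354). The Nipbl_het call was lost without any 1 of 9 libraries (Nipbl_het replicates 2, 6 and 9 and wild-type replicates 4, 5, 7, 8, 9 and 10; values 1.01 to 1.42), and the double_het call without any 1 of 10 (double_het replicates 1, 6, 8 and 9 and the same 6 wild-type libraries; values 1.18 to 1.41). Both calls were also lost without set 1 (edgeR adjusted p = 0.0989 in Nipbl_het and 0.0933 in double_het), while the averaged effect was called there (1.07, adjusted p = 0.0301).

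The Tbx1 difference was not even across sets. In set 2 the 3 wild-type libraries lay between 0.483 and 0.820 CPM and all 6 mutant libraries between 1.895 and 5.595, with no overlap. There the mean differences from wild-type were 1.53 log2 in Isl1_het, 1.90 in Nipbl_het and 2.82 in double_het. In set 5 they were 0.37, 0.93 and 0.76, and the Nipbl_het value there was 0.36 with 3 libraries when the library labelled Nipbl_het replicate 2 was left out. All 5 double_het libraries of set 5 (0.922 to 2.158 CPM) lay above its 2 wild-type libraries (0.792 and 0.848). In set 6 the differences were -0.11, 0.37 and 0.34, of which those of Isl1_het and double_het rest on 1 library each. Set 1, which has no Nipbl_het library, gave 0.37 for Isl1_het. Each of sets 2, 5 and 6 thus placed Nipbl_het and double_het above wild-type on average, by amounts that differed between sets. Without set 2 the Nipbl_het change was 1.05 (edgeR adjusted p = 0.314), the double_het change 0.62 (adjusted p = 0.628) and the averaged effect 0.71 (adjusted p = 0.387), none of them called.

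**Figure D2:**
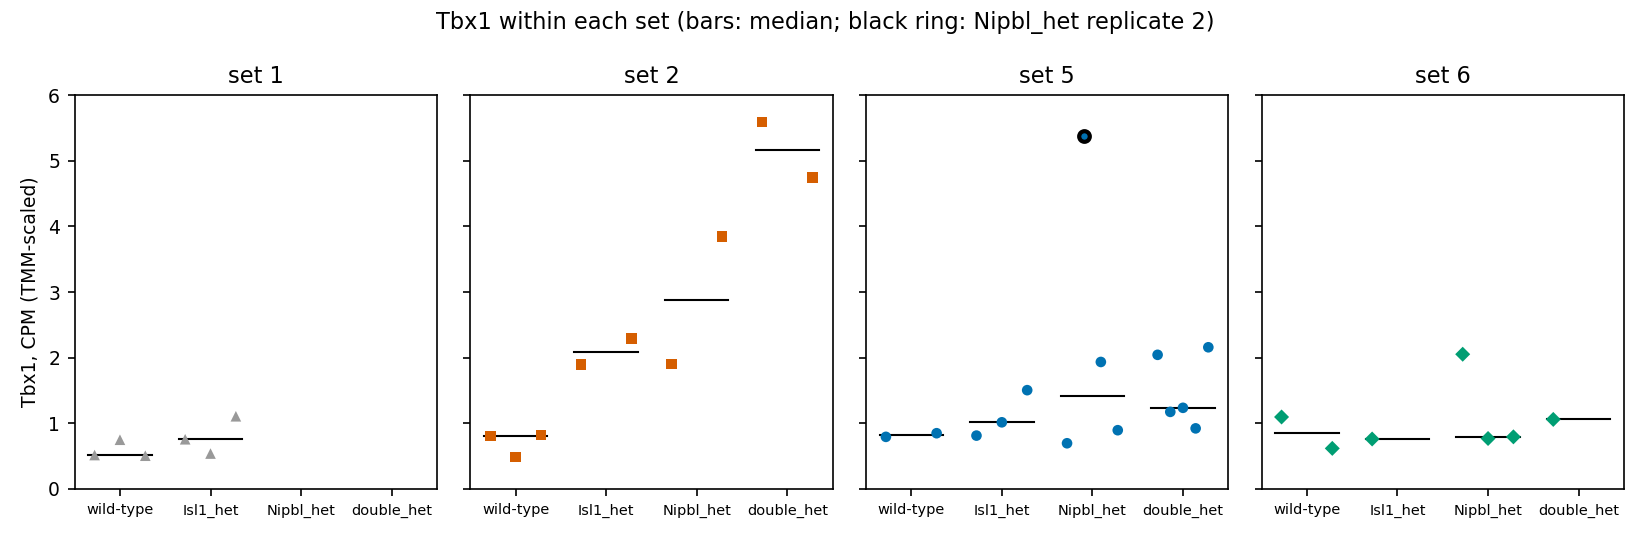
Tbx1 in CPM (linear axis) for each library of sets 1, 2, 5 and 6 by genotype, with the group median as a bar and the library labelled Nipbl_het replicate 2 ringed in black. In set 2 all 6 mutant libraries (1.895 to 5.595 CPM) lie above the 3 wild-type libraries. In set 5 all 5 double_het libraries lie above the 2 wild-type ones (0.792 and 0.848 CPM) while Nipbl_het libraries lie on both sides of them, and in set 6 double_het and Isl1_het have 1 library each.

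Blood and neighbouring tissue varied between these hearts, and the values are given for their bearing on Tbx1. Erythroid markers summed to 484 CPM in the library labelled Nipbl_het replicate 2 and up to 105500 CPM in a wild-type library, with group medians of 10500 in wild-type, 14420 in Isl1_het, 6610 in Nipbl_het and 15100 in double_het. A further fit took the mean log2 CPM of the 6 tested erythroid markers as a covariate. In it the Tbx1 change was 1.09 in Nipbl_het (edgeR adjusted p = 0.124), 1.48 in double_het (adjusted p = 0.0148) and 0.90 for the averaged effect (adjusted p = 0.0396). Liver and foregut endoderm markers (9 genes) had group medians of 1.60 to 2.12 CPM in sum and reached 358 CPM in Nipbl_het replicate 9, of which Afp, the fetal serum protein, made 301. That heart held 3.85 CPM of Tbx1. Without it Tbx1 changed by 1.33 in Nipbl_het (edgeR adjusted p = 0.0741) and by 1.05 on average (adjusted p = 0.0235). In the library labelled Nipbl_het replicate 2 the endoderm sum was 1.86 CPM. Nkx2-1, a listed foregut marker, stood at 1.499 CPM in double_het replicate 6, 1.504 in Isl1_het replicate 8 and 1.028 in Isl1_het replicate 5. Tbx1 there was 5.595, 1.504 and 2.288 CPM. In every other library Nkx2-1 was at most 0.0594 CPM. These include Nipbl_het replicate 2 and double_het replicate 8, with 5.38 and 4.749 CPM of Tbx1. The part of these tissues in the Tbx1 difference was not tested beyond these values.

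Genes of the pharyngeal and outflow programme around Tbx1 were read from a list of 19, of which 16 were tested. Isl1 was the member called in Nipbl_het, at 0.79 (SE 0.194, edgeR adjusted p = 0.0252), and none was called in double_het, counts of 1 and 0 of 16 beside 1.71% and 2.6% of all genes. In double_het 3 of 16 had an unadjusted p under 0.05 in edgeR, beside 1739 of all 15046 genes. For the averaged Nipbl effect Isl1 was higher (0.65, edgeR adjusted p = 0.00655) and Wnt5a, a signal of outflow tract progenitors, lower (-0.33, edgeR adjusted p = 0.00680), 2 of 16 beside 4.02% of all genes. The list's median change in Nipbl_het was 0.23 beside 0.01 over all genes tested, and 0.10 beside -0.0099 without the library labelled Nipbl_het replicate 2. Isl1 stood at 9.11, 12.5 and 17.5 CPM (lowest, median, highest) in Nipbl_het against 5.03, 6.82 and 13.0 in wild-type. Fgf8, a secreted signal downstream of Tbx1, had medians of 2.00 CPM in Nipbl_het and 2.06 in wild-type and was not called. Fgf10, another such signal, had its highest value of all groups, 15.2 CPM, in the library labelled Nipbl_het replicate 2. Without that library Fgf10 was called lower in double_het (1 of 16 beside 5.58% of all genes), and Isl1 and Wnt5a kept their calls in the averaged Nipbl effect (2 of 16 beside 6.93%). For the averaged Isl1 effect 2 of 16 were then called beside 0.372% of all genes, Fgf10 lower (-0.49, edgeR adjusted p = 0.0276) and Aldh1a2, a retinoic acid synthesis enzyme gene, higher (0.51, adjusted p = 0.0276). Aldh1a2 is also 1 of 7 epicardial markers. All 7 had positive values in that fit, and 2 of 7 were called (Aldh1a2 and Upk3b).

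Tbx5 (chr5:119832668-119885219, plus strand) activates chamber genes and is itself needed for atria and left ventricle. Its levels were 64.95, 79.5 and 99.9 CPM in wild-type (lowest, median, highest), and 70.5, 76.4 and 94.2 in Isl1_het. They were 75.2, 93.4 and 126.2 in Nipbl_het and 65.0, 87.9 and 98.1 in double_het. All groups overlapped, with 2 of 9 Nipbl_het libraries above every wild-type one, the higher being the doubtful replicate 2. In Nipbl_het the change was 0.12 (-0.03 to 0.27, edgeR adjusted p = 0.435) and 0.07 (-0.06 to 0.20) without that library. Double_het differed from Nipbl_het by -0.16 (-0.31 to -0.01, unadjusted p = 0.0432 and adjusted p = 0.546 in edgeR), and by -0.10 without it. Across sets the Tbx5 median was 71.85 CPM in set 1, 76.4 in set 2, 88.0 in set 5 and 92.6 in set 6, beside genotype medians of 76.4 to 93.4 CPM.

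Tbx20 (chr9:24718138-24774303, minus strand) is the T-box gene of both myocardium and endocardium and had the highest CPM of the 6. Wild-type libraries held 145.2, 201.5 and 256.6 CPM, and Isl1_het libraries 164.2, 215.0 and 250.8. Nipbl_het libraries held 134.2, 203.6 and 289.0 CPM, and double_het libraries 115.5, 212.2 and 271.3. The groups overlapped over nearly their whole range. The lowest Nipbl_het value was again the library labelled Nipbl_het replicate 2. Changes were 0.04 in Isl1_het (-0.18 to 0.25), -0.12 in Nipbl_het (-0.35 to 0.11) and -0.09 in double_het (-0.33 to 0.15), none called by edgeR. In Nipbl_het the interval runs from 0.785-fold to 1.08-fold of wild-type. Set medians of Tbx20 were 186 CPM in set 1, 164 in set 2, 226 in set 5 and 241 in set 6.

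**Figure D3:**
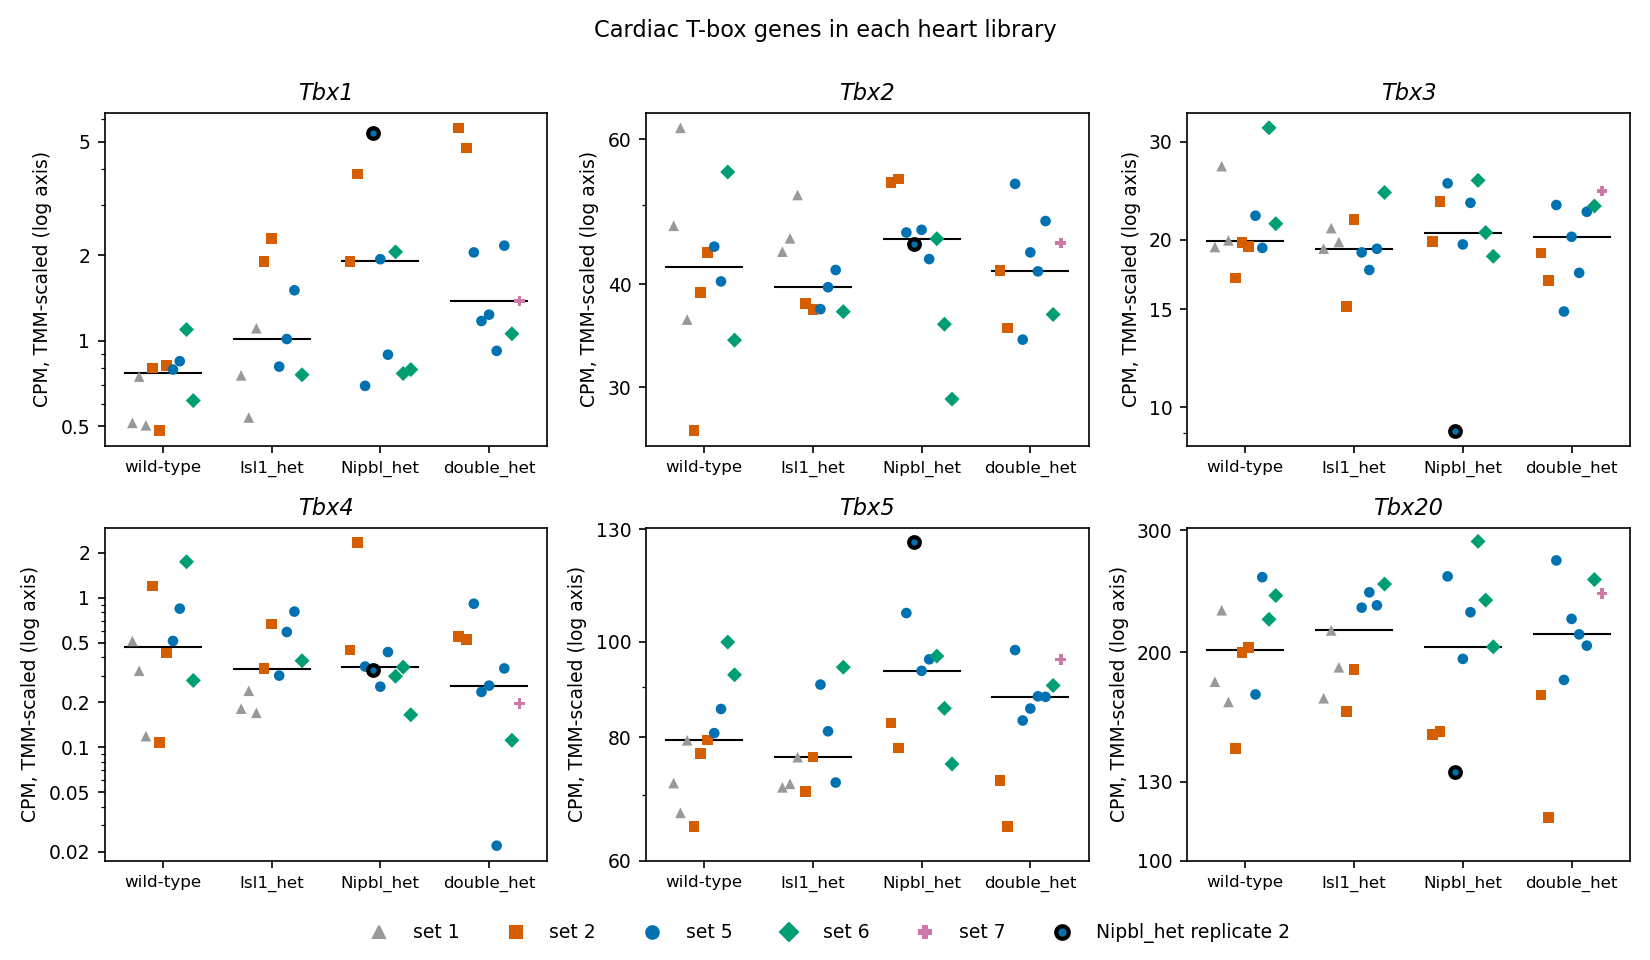
CPM (log axis, scaled separately in each panel) of the 6 T-box genes in every library by genotype, with symbols for the set number, bars for the group median and a black ring for the library labelled Nipbl_het replicate 2. Tbx1 climbs above the wild-type maximum of 1.095 CPM in 7 of 9 double_het libraries, though its genotypes overlap at their low ends. Tbx2, Tbx3, Tbx5 and Tbx20 also overlap between all genotypes.

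The chamber genes that Tbx5 and Tbx20 activate were read from a list of 12, all tested. None was called in Nipbl_het, in double_het or for the averaged Nipbl effect with all 37 libraries, beside 1.71%, 2.6% and 4.02% of all genes. In edgeR 4, 2 and 3 of the 12 had an unadjusted p under 0.05, beside 2267, 1739 and 2243 of all 15046 genes. The list's median change was -0.19 in Nipbl_het and 0.05 in double_het, beside 0.01 and -0.0019 over all genes. Nppa stood at 1567, 2071 and 2793 CPM in wild-type and at 1032, 1629 and 2754 in Nipbl_het, where 4 of 9 libraries lay below every wild-type one. It stood at 1854, 2015 and 2556 CPM in Isl1_het and at 1639, 2316 and 2974 in double_het, where 2 of 9 lay above every wild-type library and 0 below. Without the library labelled Nipbl_het replicate 2, 1 of 12 was called in double_het (Casq2, a calcium store protein, higher) and 1 of 12 in the averaged effect (Gja5, an atrial and conduction gap junction gene, lower), beside 5.58% and 6.93% of all genes. Among 16 partner factors, Irx4, a ventricular identity factor, was lower in Nipbl_het (-0.47, edgeR adjusted p = 0.0326) and in double_het (-0.50, adjusted p = 0.0241). Mycn, a transcription factor needed for growth of the ventricular wall, was also lower, at -0.47 and -0.50 (edgeR adjusted p = 0.000421 and 0.000198). Hey2, a transcriptional repressor expressed in the compact ventricular wall, was called in double_het only (-0.42, edgeR adjusted p = 0.0360), which does not show that the genotypes differ in it. All 3 were called in both genotypes without the library labelled Nipbl_het replicate 2, and Casz1 was called lower in double_het as well, which makes 3 and 4 of 16 beside 2.72% and 5.58% of all genes. Irx4, Mycn and Hey2 are also 3 of 7 ventricular markers, a list whose 7 members all had negative values in both genotypes (median -0.23 in Nipbl_het and -0.35 in double_het) and in Isl1_het (-0.26). The summed level of these 7 had medians of 15120 CPM in wild-type, 12710 in Isl1_het, 12100 in Nipbl_het and 12910 in double_het. It ran from 11550 to 17740 CPM in wild-type, 10510 to 15150 in Isl1_het, 10670 to 14010 in Nipbl_het and 9705 to 15690 in double_het, so the groups overlapped. Of 6 atrial markers, 5 had positive values in Nipbl_het (median 0.35) and 6 in double_het (0.18), and Sln, an atrial calcium pump regulator, was the one called in each (1.84 and 2.23, edgeR adjusted p = 0.0109 and 0.00168). Their sum did not follow that sign in its medians, at 5608 CPM in wild-type (4093 to 8371), 5025 in Isl1_het (4334 to 6893), 4512 in Nipbl_het (3911 to 7783) and 5437 in double_het (4044 to 9017). The part of chamber proportions in the partner calls was not tested. Nkx2-5 and Gata4, the direct partners of Tbx5, were among the 13 not called in double_het. The 2 and 3 of 16 partners called in Nipbl_het and double_het stand beside 1.71% and 2.6% of all genes. For the averaged Isl1 effect Nkx2-5 was at -0.20 (edgeR adjusted p = 0.0701). When Nipbl_het replicate 2 was left out, Nkx2-5 (-0.22, edgeR adjusted p = 0.0452) and Smarcd3, a chromatin remodelling partner (-0.19, adjusted p = 0.0488), were called lower for that effect, where 0.372% of all genes were.

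Tbx2 (ENSMUSG00000000093.6, chr11:85832551-85841948, plus strand) marks the atrioventricular canal and outflow tract. Its levels were 26.55, 42.0 and 61.96 CPM in wild-type, 37.05, 39.7 and 51.35 in Isl1_het, 29.0, 45.4 and 53.7 in Nipbl_het, and 34.3, 41.6 and 53.0 in double_het. No mutant library lay outside the wild-type range. Without the library labelled Nipbl_het replicate 2 the Nipbl_het value was 0.12 for Tbx2, -0.06 for Tbx20 and -0.46 for Tbx4, none called by edgeR. Changes were -0.08 in Isl1_het (-0.31 to 0.14), 0.12 in Nipbl_het (-0.11 to 0.36) and 0.01 in double_het (-0.24 to 0.26), none called by edgeR. The sign of the value in double_het turned under 7 of the other processing choices, so no direction is given.

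Tbx3 (chr5:119670669-119684724, plus strand), the closest relative of Tbx2 and a factor of the sinus node and conduction system, was at 17.1, 19.9 and 31.8 CPM in wild-type and at 15.2, 19.3 and 24.3 in Isl1_het. It was at 9.07, 20.6 and 25.6 CPM in Nipbl_het and at 14.9, 20.2 and 24.5 in double_het. The low Nipbl_het value is the library labelled Nipbl_het replicate 2, and the next lowest of that group was 18.7. Changes were -0.12 in Isl1_het (-0.38 to 0.13), -0.08 in Nipbl_het (-0.35 to 0.19) and -0.10 in double_het (-0.38 to 0.19), none called by edgeR. Without that library the Nipbl_het value was 0.01 (-0.20 to 0.21), so the sign turned, while the intervals of all 3 narrowed. Tbx3 is overlapped on the other strand by Tbx3os1, and the strand setting of the counting is not given in the sources used here, so some of its counts could come from that transcript.

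**Figure D4:**
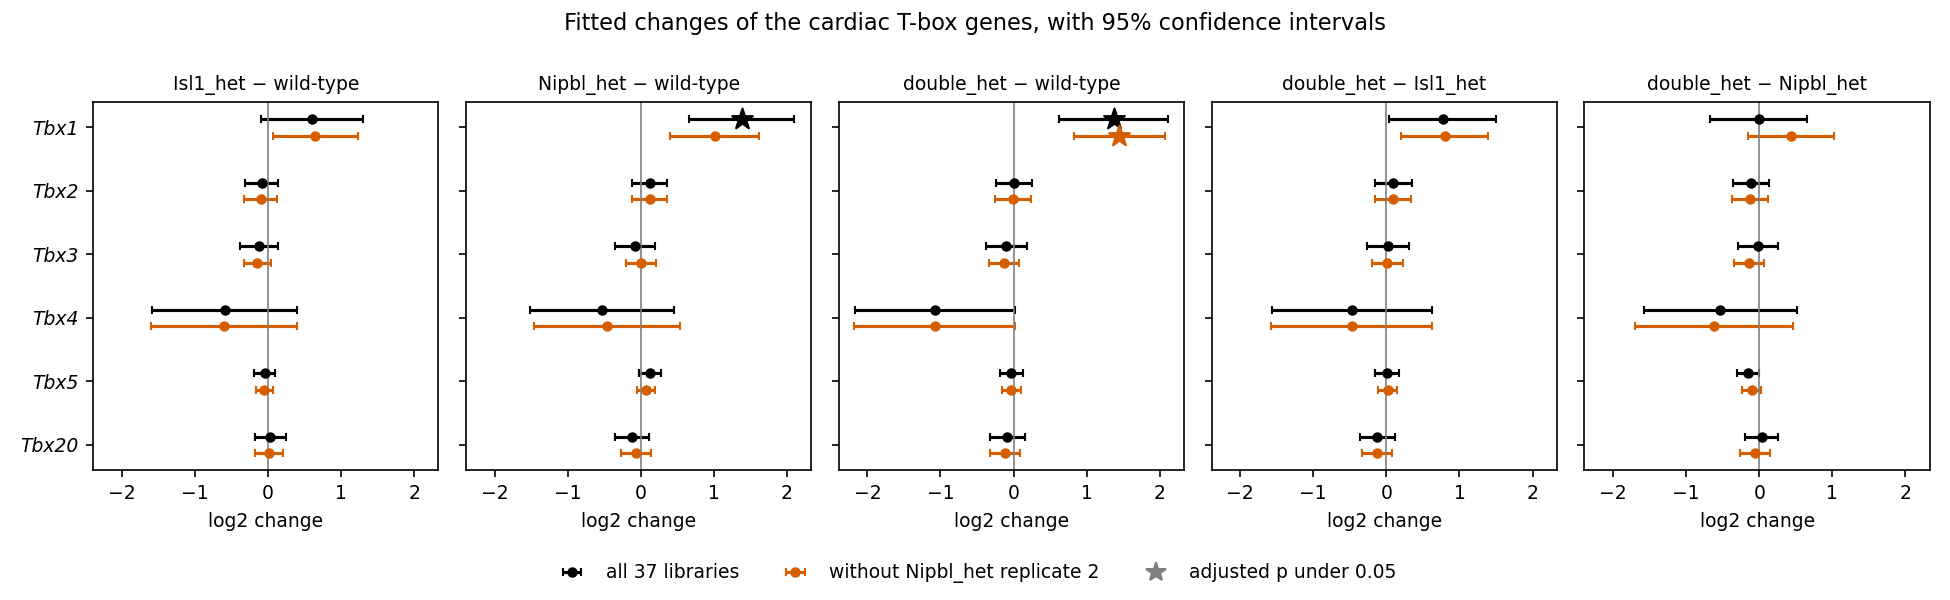
Fitted log2 changes (points) with 95% confidence intervals (bars) of the 6 T-box genes in 5 comparisons, with all 37 libraries in black and without the library labelled Nipbl_het replicate 2 in orange. Stars mark an adjusted p under 0.05, which only Tbx1 reaches: at 1.38 in Nipbl_het with all libraries, and at 1.37 and 1.45 in double_het with and without that library.

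A list of 15 genes covered the atrioventricular canal and sinus node, the myocardium that Tbx2 and Tbx3 keep out of the chamber programme. In Nipbl_het 3 of the 15 had an unadjusted p under 0.05 in edgeR, beside 2267 of all 15046 genes. After adjustment 0 of 15 were called in Nipbl_het and 1 in double_het, beside 1.71% and 2.6% of all genes. That gene was Rspo3, a secreted amplifier of Wnt signals, at -0.49 (SE 0.112, edgeR adjusted p = 0.0100) in double_het and -0.32 (adjusted p = 0.0165) for the averaged Nipbl effect. The list's median change was 0.01 in Nipbl_het and -0.02 in double_het. Hcn4, the pacemaker channel gene, had medians of 65.7 CPM in wild-type, 78.6 in Isl1_het, 81.3 in Nipbl_het and 75.4 in double_het and was not called. Rspo3 was also called without the library labelled Nipbl_het replicate 2. Bmp2, the atrioventricular canal signal upstream of Tbx2, had medians of 44.2, 46.2, 45.1 and 49.3 CPM and was not called.

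Tbx4 (chr11:85886422-85916097, plus strand) was the least abundant. It was at 0.107, 0.471 and 1.746 CPM in wild-type, 0.170, 0.336 and 0.810 in Isl1_het, 0.165, 0.344 and 2.34 in Nipbl_het and 0.0219, 0.259 and 0.914 in double_het. The highest value of all was Nipbl_het replicate 9 and the lowest a double_het library with 1 count. Changes were -0.59 in Isl1_het (-1.59 to 0.40), -0.54 in Nipbl_het (-1.52 to 0.45) and -1.07 in double_het (-2.16 to 0.03, unadjusted p = 0.0552 and adjusted p = 0.449 in edgeR). Each value rests on 1 to 90 counts. Without Nipbl_het replicate 9 the Nipbl_het value was -1.16 (edgeR adjusted p = 0.234), and without wild-type replicate 6 it was 0.02.

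The lung and limb programme of Tbx4 and Tbx5 had 10 listed genes, of which 7 were tested. In double_het 1 was higher and 1 lower, beside 2.6% of all genes called. Wnt2b, a Wnt signal of lung-forming mesoderm, stood at 7.39, 11.0 and 12.2 CPM in double_het against 3.12, 5.76 and 9.25 in wild-type, a change of 0.53 (edgeR adjusted p = 0.0142). Pitx1, a hindlimb and jaw factor that activates Tbx4, stood at 0.0878, 0.278 and 0.528 CPM against 0.505, 0.753 and 2.31, a change of -1.47 (edgeR adjusted p = 0.0224). Pitx1 in double_het and wild-type overlapped only between 0.505 and 0.528 CPM. At these levels Pitx1, like Tbx4, rests on few reads per library, and so does its call. None of the 7 was called in Nipbl_het with all libraries, where 1.71% of all genes were called. There 3 of the 7 had an unadjusted p under 0.05 in edgeR, beside 2267 of all 15046 genes. Wnt2b and Pitx1 were called again in double_het without the library labelled Nipbl_het replicate 2, and Osr2, a factor of limb and intermediate mesoderm, was called higher in both genotypes, which makes 1 of 7 in Nipbl_het and 3 of 7 in double_het beside 2.72% and 5.58% of all genes. In that repeat the averaged Nipbl effect had 3 of 7 called higher (Wnt2b, Osr2 and Gli1, a target of hedgehog signalling) beside 6.93%, and the averaged Isl1 effect 1 of 7 (Pitx1, lower) beside 0.372%.

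The remaining T-box family gave 4 tested genes of 11 listed (Eomes, Mga, Tbx6 and Tbx18). Tbx18, a factor of epicardium and sinus horn, was called in double_het at 0.38 (SE 0.0923, edgeR adjusted p = 0.0186), beside 2.6% of all genes called, with 73.6, 87.7 and 97.9 CPM against 51.6, 64.0 and 75.8 in wild-type. It was called there without the library labelled Nipbl_het replicate 2 too. Epicardial markers, of which Tbx18 is 1 of 7, moved with it: their sum had medians of 411 CPM in wild-type, 496 in Isl1_het, 505 in Nipbl_het and 634 in double_het. The part of epicardial cell number in the T-box values was not tested.

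The genes beside the T-box genes on their chromosomes were read as well. Tbx2 and Tbx4 lie 44.5 kb apart on chromosome 11 and Tbx3 and Tbx5 lie 147.9 kb apart on chromosome 5, with no other protein-coding gene between the latter. Among the nearest 2 protein-coding genes on each side of each member, 11 could be tested, and edgeR called 0 of 11 in each of the 8 comparisons, beside 0% to 4.02% of all genes. In double_het and the averaged Nipbl effect 0 of the 11 had an unadjusted p under 0.05 in edgeR, beside 1739 and 2243 of all 15046 genes. In Nipbl_het 1 of the 11 had, beside 2267. That gene was Gp1bb, a platelet receptor subunit gene 29.6 kb from Tbx1, at 0.69 log2 in Nipbl_het (unadjusted p = 0.0101 and adjusted p = 0.170 in edgeR) and 0.27 in double_het (adjusted p = 0.772). Gnb1l, 14.3 kb from Tbx1, stood at -0.07 in Nipbl_het (edgeR adjusted p = 0.798).

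Across 36 libraries, after the mean of each genotype within each set was removed, the T-box genes varied together in part. The centred values were shuffled freely over all libraries, although the centring ties libraries of the same genotype and set to each other. The permutation p-values below therefore tend to be too small, and the counts of pairs that pass too high. Tbx3 and Tbx20 had r = 0.710 and rho = 0.584 (permutation p = 1e-05, the smallest 100000 resamples can give, and 0.00029; adjusted over 15 pairs 0.00015 and 0.00217). Tbx2 and Tbx20 had r = 0.503 and rho = 0.448 (permutation p = 0.00189 and 0.0066, adjusted 0.00955 and 0.0185), and Tbx2 and Tbx3 had r = 0.500 and rho = 0.627 (permutation p = 0.00191 and 7e-05, adjusted 0.00955 and 0.00105). Tbx1 and Tbx4 had r = 0.412 and rho = 0.459 (permutation p = 0.0128 and 0.00549, adjusted 0.048 and 0.0185). These 4 of 15 pairs passed by Pearson's r, and 6 of 15 by Spearman's rho, the added ones being Tbx1 with Tbx2 (rho = 0.531, adjusted permutation p = 0.00605) and Tbx3 with Tbx4 (rho = 0.440, adjusted permutation p = 0.0185). With the 2 libraries that are alone in their genotype and set also left out, the Tbx1 and Tbx4 pair had an adjusted permutation p of 0.0601 and 3 of 15 passed by r. Without the library labelled Nipbl_het replicate 2, 10 of 15 pairs passed by r and 9 by rho. Tbx5 and Tbx20 then had r = 0.550 in place of 0.137, and Tbx1 and Tbx3 had 0.425 in place of -0.267. Without the 2 libraries farthest from the median of the first gene, r was 0.540 for Tbx3 and Tbx20, 0.411 for Tbx2 and Tbx20, 0.472 for Tbx2 and Tbx3, and 0.566 for Tbx1 and Tbx4, each still past the threshold by r, though Tbx2 and Tbx20 not by rho (adjusted permutation p = 0.0570). In that repeat 10 of 15 pairs passed by r and 6 by rho. The libraries share their depth scaling and their proportions of tissue, whose part in these correlations was not tested.

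**Figure D5:**
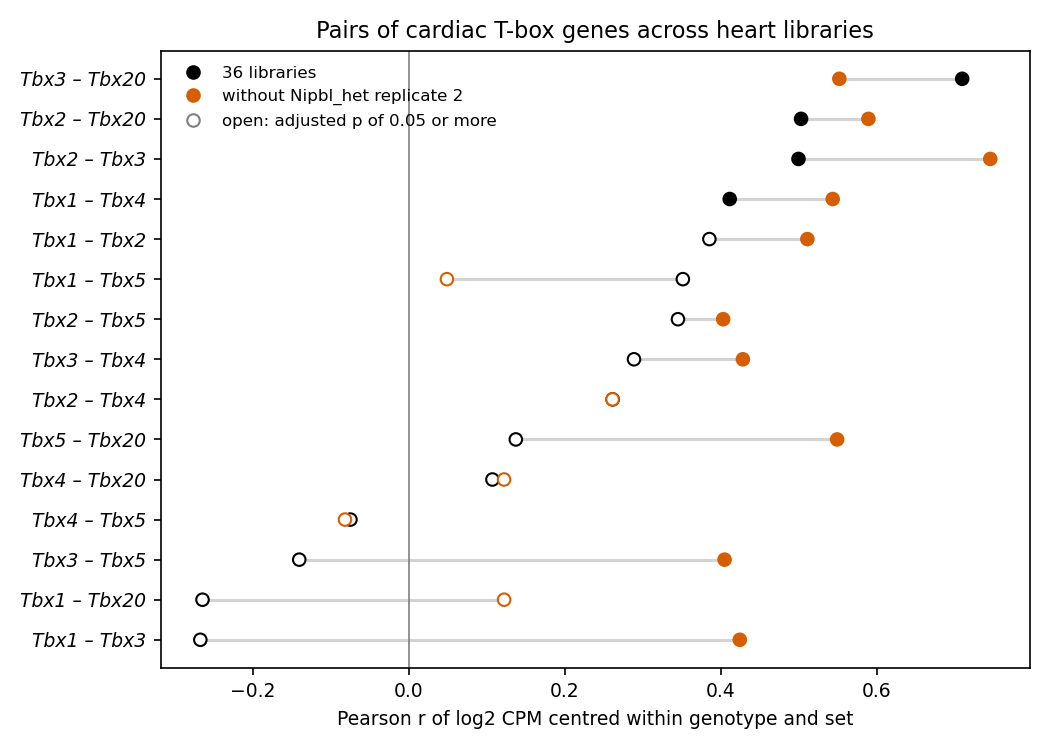
Pearson r of log2 CPM, centred within genotype and set, for the 15 pairs of T-box genes, over 36 libraries (black) and over 35 without the library labelled Nipbl_het replicate 2 (orange). Filled points have an adjusted permutation p under 0.05. Leaving out that library moves Tbx1 and Tbx3 from -0.267 to 0.425 and Tbx5 and Tbx20 from 0.137 to 0.550.

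The genes most like each T-box gene were read from Spearman's rho of log2 CPM with the set mean removed, over the same 36 libraries and all 15046 genes tested, as a description without a test. For Tbx1 these were Large2 (rho 0.784), Dpep1 (0.740) and Cacnb3 (0.729), a subunit of voltage-gated calcium channels. Large2, a glycosyltransferase gene, was itself called in Nipbl_het (1.15, edgeR adjusted p = 0.0222) and in double_het (1.36, adjusted p = 0.00556). Cacnb3 was called in both as well (0.67 and 0.57, edgeR adjusted p = 0.000105 and 0.000638). Dpep1, the second of the 3, was not called (0.18 and 0.57, edgeR adjusted p = 0.821 and 0.533). Genotype differences were left in this rho, so the calls of the former 2 follow in part from how the genes were chosen. Tbx2 was most like Meis1 (0.738), a homeobox cofactor, Lamb2 (0.711) and Mier2 (0.710). For Tbx3 the nearest were Msx2 (0.743), a homeobox factor of the atrioventricular canal, Mab21l2 (0.716) and Hand1 (0.698). Tbx4 followed Tlx1 (0.733), Dkk1 (0.692), a Wnt inhibitor, and Tfap2a (0.632), and Nipbl_het replicate 9 held 6.14 CPM of Tlx1 and 7.15 of Dkk1. Tbx5 was nearest to Smtnl2 (0.801), Qtrt2 (0.765) and Hyou1 (0.765), a stress chaperone. Tbx20 was nearest to Sorbs2 (0.890), Antxr2 (0.886) and Slc12a2 (0.866). The leading gene was the same without the library labelled Nipbl_het replicate 2 for Tbx1, Tbx4 and Tbx20, and differed for Tbx2, Tbx3 and Tbx5.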

How the data were processed

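Total RNA from mouse E10.5 hearts was sequenced as paired ends. The authors deposited 1 table of raw read counts, not normalized, in which libraries are columns and gene symbols rows. The submitters' processing notes name STAR, featureCounts and the build GRCm38 (mm10), with no versions, and the strand setting is not given in the sources used here. Of 25239 symbols, 24366 matched GENCODE M21, the source of coordinates and exon lengths, and 0 other columns of values were present.

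The T-box genes and all gene lists were chosen with earlier results of these data known. The genes named are the 6 members, their nearest neighbours, the 3 most similar genes of each, and up to 4 called genes per list plus genes a result turns on. One listed gene is not reported here. Genotypes came from the titles and set numbers from the descriptions. Genes were kept by filterByExpr (minimum count 10, minimum total 15), which left 15046. All 6 members passed. After TMM scaling, counts were fitted with genotype and set as factors in edgeR 4.0.16 (R 4.3.3, limma 3.58.1) over all 37 libraries. Quasi-likelihood tests were two-sided and adjusted by Benjamini-Hochberg over all genes of a comparison, at 0.05. Standard errors came from the F statistic, and log2 CPM used a prior count of 2. Depth sets the counting error of low genes, and reads lack molecular identifiers, so they do not count molecules one by one.

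Correlations used 100000 permutations. Alternatives were no set term, the replicate number as an added block, DESeq2 1.42.0, RLE size factors, no filter, 2 surrogate variables (sva 3.50.0), a floor of 10 counts for each library, an erythroid covariate, and leaving out each set and each library. Added after seeing the data were the correlations without the 2 libraries alone in their genotype and set, the Tbx1 values within sets, and these and the spread in Nipbl_het without its replicate 2. No 2 libraries of a genotype agreed within sampling noise. Tables and figures used scipy 1.17.1, pandas 2.3.3 and matplotlib 3.10.9 under Python 3.11.15.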

Additional observations from a re-analysis of the deposited data

Results flagged for a closer look

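Among 24 groups examined (6 T-box genes in 4 genotypes), 2 held a library far from the rest by Dixon's gap test on log2 CPM. Chance flags about 1 in 20 such groups where values are normally distributed. Tbx3 in Nipbl_het had its lowest value, 9.07 CPM, in the library labelled replicate 2, with the next at 18.7. On the log2 scale the gap was 0.697 of the group's range against a critical 0.493. Tbx4 in Nipbl_het had its highest value, 2.34 CPM, in replicate 9, with the next at 0.447. On the log2 scale the gap was 0.655 of the range against 0.493. In the same library the endoderm marker sum was 358 CPM and Tlx1 was at 6.14 CPM, and their part in the Tbx4 value was not tested.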

How the results depend on the processing

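Tbx1 kept a positive sign in Nipbl_het, double_het and the averaged Nipbl effect under every choice tried. Its calls were lost, besides those given without set 2 and with the erythroid covariate in Nipbl_het (1.09), without set 1 (1.41 in Nipbl_het, adjusted p = 0.0989, and 1.40 in double_het, adjusted p = 0.0933) and without set 5 (1.23 in Nipbl_het, adjusted p = 0.105), where fewer libraries were fitted. Replicate numbers of the titles do not pair libraries: 54 same-numbered pairs had a median correlation of 0.0279 (-0.449 to 0.554), and 3 of 37 libraries correlated best with their own number. With that number as a replicate block Tbx1 was 1.13 in Nipbl_het (adjusted p = 0.136), 1.31 in double_het (0.0591) and 0.91 on average (0.0634), not called. Without set 2 the values were 1.05, 0.62 and 0.71. The other members were not called under any choice. Tbx4 gave no value at a minimum of 10 counts in every library. Changes whose sign turned had these values. With 2 surrogate variables to -0.017 (Tbx20, Isl1_het), 0.032 (Tbx3, Nipbl_het), -0.027 (Tbx2, double_het), 0.36 (Tbx1, double_het against Nipbl_het), -0.079 (Tbx20, double_het against Nipbl_het), -0.0035 (Tbx4, the interaction), 0.048 (Tbx3, the averaged Nipbl effect) and -0.048 (Tbx20, the averaged Isl1 effect). Without set 2 to -0.055 (Tbx2, Nipbl_het), -0.058 (Tbx2, double_het), 0.018 (Tbx20, double_het), 0.048 (Tbx3, double_het against Nipbl_het), 0.14 (Tbx2, the interaction) and -0.098 (Tbx1, the averaged Isl1 effect). Without set 6 to 0.018 (Tbx3, Nipbl_het), 0.063 (Tbx4, Nipbl_het), 0.0054 (Tbx5, double_het), -0.38 (Tbx4, the interaction), 0.037 (Tbx20, the interaction) and 0.030 (Tbx3, the averaged Nipbl effect). Without set 5 to -0.026 (Tbx5, Nipbl_het), -0.070 (Tbx2, double_het), -0.039 (Tbx3, double_het against Isl1_het), -0.094 (Tbx5, double_het against Isl1_het), 0.67 (Tbx1, double_het against Nipbl_het), -0.056 (Tbx20, double_het against Nipbl_het), -0.18 (Tbx4, the interaction), -0.060 (Tbx5, the averaged Nipbl effect) and -0.025 (Tbx20, the averaged Isl1 effect). With no set term to 0.024 (Tbx20, Nipbl_het), -0.026 (Tbx2, double_het), 0.092 (Tbx5, double_het), 0.046 (Tbx20, double_het), 0.15 (Tbx1, double_het against Nipbl_het), -0.100 (Tbx4, the interaction) and 0.0082 (Tbx20, the averaged Nipbl effect). With DESeq2 to -0.0072 (Tbx2, double_het). With RLE size factors to -0.0072 (Tbx2, double_het). Without set 1 to -0.011 (Tbx2, double_het). With the erythroid covariate to 0.0015 (Tbx5, double_het), 0.39 (Tbx1, double_het against Nipbl_het), 0.0027 (Tbx2, the interaction) and 0.015 (Tbx20, the interaction). With the replicate block to -0.027 (Tbx5, double_het against Isl1_het) and 0.17 (Tbx1, double_het against Nipbl_het). With no filter to 0.0012 (Tbx1, double_het against Nipbl_het) and 0.0011 (Tbx20, the interaction). Without the 2 libraries farthest from the median r turned to 0.428 (Tbx1 and Tbx3), 0.180 (Tbx1 and Tbx20), 0.210 (Tbx3 and Tbx5) and -0.0022 (Tbx4 and Tbx20). Without the library labelled Nipbl_het replicate 2 it turned to 0.425 (Tbx1 and Tbx3), 0.122 (Tbx1 and Tbx20) and 0.405 (Tbx3 and Tbx5). Without the 2 libraries alone in their genotype and set Tbx1 and Tbx4 kept r = 0.412 with an adjusted permutation p of 0.0601. Counts of genes called moved in these cases. For Isl1_het 0 became 11 with DESeq2 and 11 with 2 surrogate variables. For Nipbl_het 258 became 467 with no set term, 168 with the replicate block, 459 with DESeq2, 1332 with 2 surrogate variables, 117 without set 1, 31 without set 2 and 129 without set 5. For double_het 391 became 1779 with 2 surrogate variables, 237 without set 1, 113 without set 2, 67 without set 5 and 222 without set 6. For double_het against Isl1_het 144 became 234 with DESeq2, 763 with 2 surrogate variables, 74 without set 1, 22 without set 2, 12 without set 5 and 80 without set 6. For double_het against Nipbl_het 0 became 13 with 2 surrogate variables. For the averaged Nipbl effect 605 became 1045 with no set term, 2057 with 2 surrogate variables, 152 without set 2, 280 without set 5 and 398 without set 6. For the averaged Isl1 effect 26 became 0 with no set term, 115 with DESeq2, 243 with 2 surrogate variables, 0 with the erythroid covariate, 0 without set 1, 0 without set 2, 0 without set 5 and 7 without set 6. Leaving out 1 library at a time gave log2 changes of -0.010 to 0.077 (Tbx20, Isl1_het), 1.01 to 1.60 (Tbx1, Nipbl_het), -0.13 to 0.0096 (Tbx3, Nipbl_het), -1.16 to 0.016 (Tbx4, Nipbl_het), 1.18 to 1.54 (Tbx1, double_het), -0.067 to 0.085 (Tbx2, double_het), -0.015 to 0.068 (Tbx3, double_het against Isl1_het), -0.034 to 0.033 (Tbx5, double_het against Isl1_het), -0.18 to 0.44 (Tbx1, double_het against Nipbl_het), -0.14 to 0.036 (Tbx3, double_het against Nipbl_het), -0.94 to 0.11 (Tbx4, double_het against Nipbl_het), -0.054 to 0.091 (Tbx20, double_het against Nipbl_het), -0.12 to 0.022 (Tbx2, the interaction), -0.47 to 0.69 (Tbx4, the interaction), -0.070 to 0.052 (Tbx20, the interaction), -0.057 to 0.013 (Tbx3, the averaged Nipbl effect) and -0.019 to 0.065 (Tbx20, the averaged Isl1 effect), and counts of genes called of 0 to 2 (Isl1_het), 169 to 409 (Nipbl_het), 246 to 839 (double_het), 73 to 361 (double_het against Isl1_het), 440 to 1043 (the averaged Nipbl effect) and 4 to 60 (the averaged Isl1 effect). Causes were not tested. Counts of 1 to 90 limit Tbx4 and of 16 to 224 limit Tbx1.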
